A study of Mus musculus with 8 samples.

Results

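The genes described here belong to 5 developmental signalling systems, namely Wnt, BMP and TGF-beta, FGF, Notch and Hedgehog. They were picked by gene name alone, from the families Wnt, Fzd, Axin, Lrp, Tcf7, Dvl, Ror, Bmp, Bmpr, Smad, Tgfb, Tgfbr, Notch, Jag, Fgf, Fgfr, Gli and Ptch, and all their differentially methylated regions in the CG, CHH and CHG tables were taken. This gave 132 of 9329 called regions, in 64 of 4901 gene symbols. Some entries repeated the same values under another transcript, and 123 regions had values of their own. The name patterns also catch genes that act elsewhere. Lrp1b and Lrp2 are endocytic receptors of the LDL receptor family, Lrp8 is a reelin receptor, and Bmp2k is an intracellular kinase, and these genes were kept apart from the pathways.

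Whole-genome bisulfite sequencing was done on hippocampal DNA of 6-month-old male C57BL/6N mice, in 8 libraries. WT mice were compared with Mutyh-/- mice, with Ogg1-/- mice and with the double knockout (DKO), which lacked both genes. Ogg1 excises 8-oxoguanine from DNA, and Mutyh excises the adenine mispaired with it. Each genotype had 2 libraries, and the labels leave unsaid whether they are separate animals or repeat preparations. The spread within a genotype may therefore be technical. All 3 comparisons used the same WT libraries. The DNA came from whole hippocampus, so a shift in the mix of cell types and a change within cells cannot be told apart.

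Signalling through these pathways starts with a ligand outside the cell. Wnt ligands bind Frizzled receptors with Lrp5 or Lrp6 as co-receptors and act through beta-catenin and the Tcf7 family of transcription factors, while Ror receptors take Wnt5a-type ligands. BMP and TGF-beta ligands activate paired kinase receptors that phosphorylate Smad proteins, with Smad6 and Smad7 as inhibitors. Secreted FGFs activate receptor tyrosine kinases, Jagged ligands on one cell trigger the cleavage of Notch receptors on its neighbour, and Hedgehog ligands lift the hold of Ptch1 on Smo so that Gli factors can act. In the adult hippocampus these systems are known for their part in the upkeep of neural stem cells and in synapse function.

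A level is the median methylation of the cytosines that the calling tool kept in a region, in percent, taking the deposited scores of 1 to 2 as 1 plus the methylated fraction, a scale inferred from the values and stated in none of the sources used here, and a change is the knockout level minus the WT level in percentage points. Values are given per library, WT first, with means ± SD over n = 2 libraries. The regions covered the transcription start site (TSS) ± 1 kb, the transcription end site (TES) ± 1 kb, or the gene body between them. To be listed, a region had to move the same way in all 4 pairs of a knockout and a WT library, past a relative change of 0.1 (the difference between both deposited scores over their mean), so every region below is a gain or a loss by selection, and regions not called are not among the tables used here. The libraries of the 2 groups did not overlap in 99.1% of all called CG regions and 99.5% of all called CHH regions. In the named families they did not overlap in 54 of 56 CG regions and 75 of 76 CHH regions. Lack of overlap is thus nearly given by the selection and says little about a single gene. No test was run on single regions, because 2 libraries against 2 cannot give an exact 2-sided permutation p below 0.333. Read depth per region is unknown.

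Of 122 annotated genes with a matching name, 64 (52.5%) had a called region in CG or CHH in at least 1 knockout, beside 20.2% of all 21883 annotated protein-coding genes. The matching genes were longer than genes at large, with a median length of 32.5 kb against 17.2 kb, and those with a region had a median of 59.0 kb, close to the 60.1 kb of all genes with a region. The part of gene length in the share called was not tested. In CG, 13 matching genes (10.7%) had a region in Mutyh-/- beside 6.27% of all genes, 15 (12.3%) in Ogg1-/- beside 5.26%, and 18 (14.8%) in DKO beside 6.32%. In CHH the numbers were 23 (18.9%) beside 5.5% in Mutyh-/-, 29 (23.8%) beside 7.02% in Ogg1-/-, and 18 (14.8%) beside 3.17% in DKO. None of the 8 called CHG regions lay in these genes.

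CG regions went both ways and CHH regions only down. The 56 CG regions were 19 gains and 37 losses, so gains made up 33.9% of them, beside 39.4% of all called CG regions. Gains and losses numbered 7 and 8 in Mutyh-/-, where gains were 34.9% of all called CG regions. They numbered 6 and 12 in Ogg1-/-, with 41.5% gains over all called regions, and 6 and 17 in DKO, with 42.1%. Median changes were 20.8 points for gains and −21.2 for losses, and over all called CG regions they were 21.2 and −21.2. All 76 CHH regions in the named families were losses, 27 in Mutyh-/-, 31 in Ogg1-/- and 18 in DKO, as were 99.3% of all called CHH regions, and their median change of −18.3 equalled that of all called CHH regions.

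Counted once per set of values, the pathways differed in how their CG regions were split. The 11 BMP and TGF-beta regions and the 6 Notch regions were all losses. The Wnt pathway had 4 gains and 14 losses. The FGF family had 7 gains, all in Fgf12 and Fgf13, and 4 losses. Hedgehog had 1 gain, in Gli3, and the 3 regions of Lrp1b were gains. In CHH the losses numbered 25 in BMP and TGF-beta, 22 in Wnt, 10 in FGF, 6 in Notch, 5 in Hedgehog, 3 in Bmp2k and 2 in the LDL receptor family. These splits describe only the genes picked by name, and differences between pathways were not tested.

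**Figure D1:**
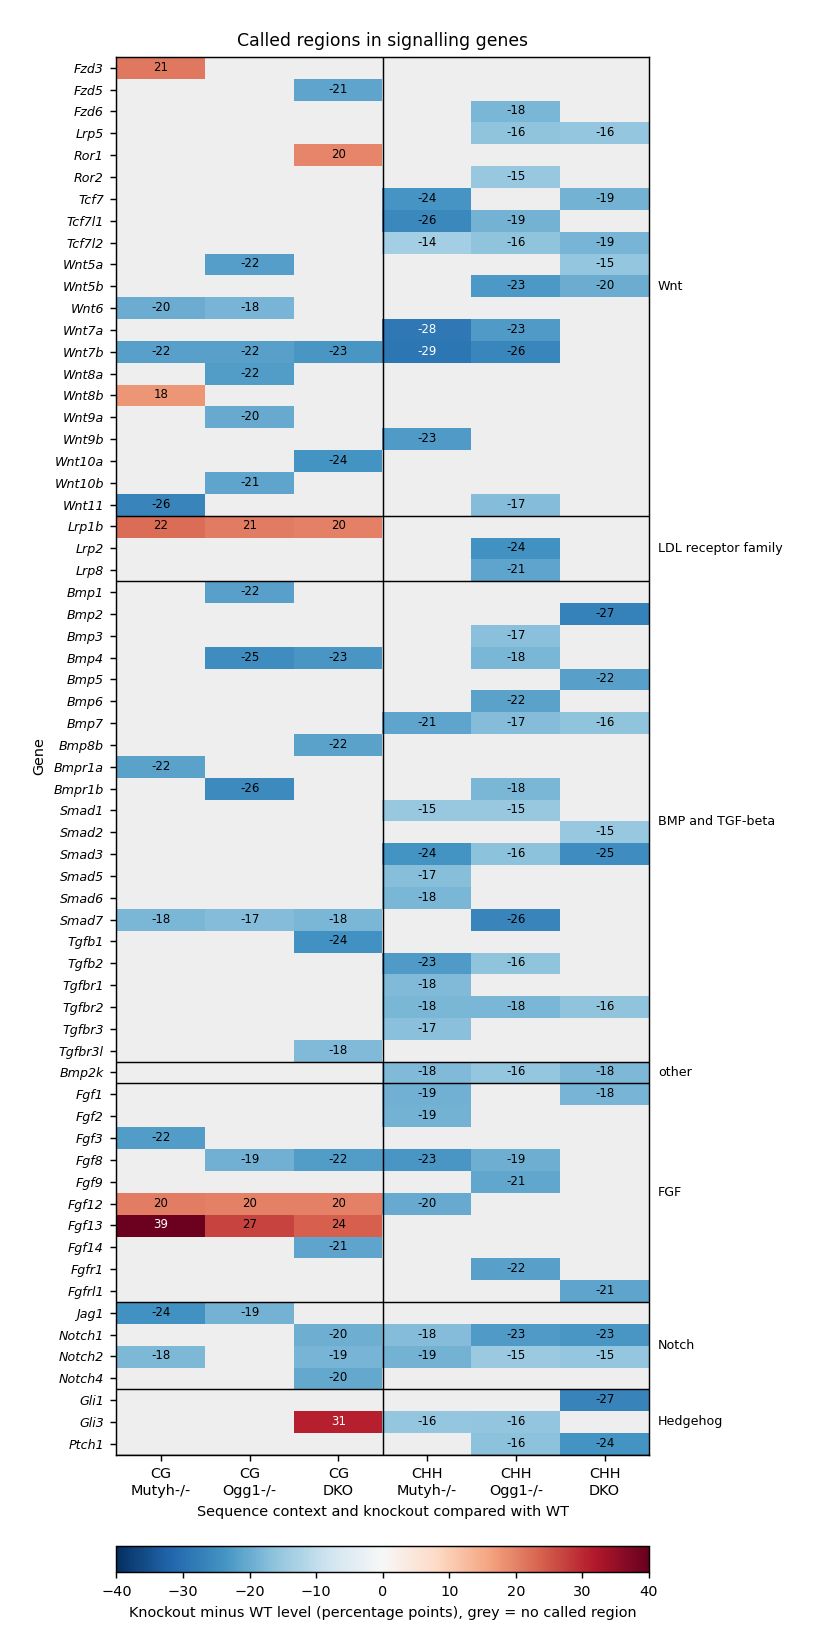
Change in methylation (knockout minus WT, percentage points, colour and printed value) for each of the 64 genes in CG and CHH and in each knockout, with genes grouped by pathway. Where a gene had more than 1 region in a cell the larger change is shown, which hides the Wnt10a gene-body gain of 17.0 in DKO behind its TES loss, and grey marks no called region. Red cells are found in CG and mainly in Fgf12, Fgf13 and Lrp1b, and the CHH columns are blue throughout.

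CG regions at a TSS were found in 9 genes, and promoter sequences of 7 of them were matched in RefSeq (GRCm38.p6), with no entry used for Wnt7b and Fgf8. The 250 bases before the start are shown for 5 genes, with each CG dinucleotide in capitals, because the CG tables measure methylation at dinucleotides of this kind. Bmp4 (chr14:46390670-46390919, minus strand) is shown as the start called in 2 knockouts, Tgfb1 (chr7:25686752-25687001, plus strand) as the most CG-rich, Wnt11 (chr7:98838595-98838844, plus strand) as the start with the largest loss, Notch4 (chr17:34564045-34564294, plus strand) as the poorest in CG, and Fgf13 (chrX:59166089-59166338, minus strand) as the only start with a gain.
Bmp4: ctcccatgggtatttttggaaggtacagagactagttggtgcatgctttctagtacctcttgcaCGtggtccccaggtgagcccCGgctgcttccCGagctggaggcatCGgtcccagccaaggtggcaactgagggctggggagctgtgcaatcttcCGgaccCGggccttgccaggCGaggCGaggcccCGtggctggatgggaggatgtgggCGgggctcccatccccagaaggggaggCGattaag
Tgfb1: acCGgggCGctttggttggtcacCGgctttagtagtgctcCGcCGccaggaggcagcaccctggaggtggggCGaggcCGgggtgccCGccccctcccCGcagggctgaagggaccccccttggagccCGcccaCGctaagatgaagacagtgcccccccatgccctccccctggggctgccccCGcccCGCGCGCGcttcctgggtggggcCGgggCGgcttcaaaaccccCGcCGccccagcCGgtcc
Wnt11: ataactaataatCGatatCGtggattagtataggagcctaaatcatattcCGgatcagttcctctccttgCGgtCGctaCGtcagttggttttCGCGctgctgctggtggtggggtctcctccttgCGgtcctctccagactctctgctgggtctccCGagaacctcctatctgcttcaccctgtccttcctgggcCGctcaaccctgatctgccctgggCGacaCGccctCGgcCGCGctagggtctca
Notch4: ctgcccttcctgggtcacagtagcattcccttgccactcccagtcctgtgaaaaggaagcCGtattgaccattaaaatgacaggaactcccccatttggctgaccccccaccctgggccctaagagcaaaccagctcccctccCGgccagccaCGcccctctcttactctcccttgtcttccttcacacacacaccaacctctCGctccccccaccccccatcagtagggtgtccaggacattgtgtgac
Fgf13: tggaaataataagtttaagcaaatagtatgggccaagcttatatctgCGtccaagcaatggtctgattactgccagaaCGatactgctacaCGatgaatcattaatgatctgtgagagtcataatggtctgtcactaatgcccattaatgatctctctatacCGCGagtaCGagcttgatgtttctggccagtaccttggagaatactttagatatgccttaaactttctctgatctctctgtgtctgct

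These stretches held 11 CG dinucleotides in Bmp4, 21 in Tgfb1, 16 in Wnt11, 4 in Notch4 and 6 in Fgf13. The starts of Notch1 and Wnt10b, not printed, held 16 and 14. Over 32851 promoters of the same length the median was 6 CG dinucleotides, with quartiles of 2 and 16, and 7.87% had none. Tgfb1 lay above 83.7% of promoters, and Notch4 above 37.8%. Losses at the matched starts thus ran from 4 CG dinucleotides, below the median, up to 21. The called windows are wider than the printed stretches, and which of the printed sites the tool kept is unknown. A level can therefore not be read as the level of the printed sites.

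At transcription start sites, 10 of the 11 CG regions were losses, beside 88.1% of all called CG regions at a TSS. The 1 TSS region in Mutyh-/- and the 7 in DKO were losses (87.3% and 89.0% of all called there), and Ogg1-/- had 2 losses and 1 gain (88.2% losses over all). Bmp4, a BMP ligand that restrains neural stem cell division, lost CG methylation at its TSS (chr14:46389600-46391599) in Ogg1-/- and in DKO. In the comparison with Ogg1-/- the level was 61.0% and 69.5% in WT and 36.0% and 44.5% in the knockout, a change of −25.0 from 65.2% ± 6.0 to 40.2% ± 6.0. In the comparison with DKO it was 66.5% in both WT libraries and 47.5% and 39.0% in DKO. Both WT libraries stood above both knockout libraries in each comparison, by at least 16.5 points.

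Tgfb1 encodes a TGF-beta ligand made by glia and immune cells. At its TSS (chr7:25686002-25688001) both WT libraries were at 90.0% and the DKO libraries at 67.0% and 64.5%, a change of −24.2. The groups were 23.0 points apart at their nearest libraries. The window also overlaps the annotated gene B9d2, so the region cannot be given to Tgfb1 alone. At the Notch4 TSS (chr17:34563295-34565294), the start of a Notch receptor best known from blood vessels, levels were 80.5% and 87.0% in WT and 62.0% and 64.5% in DKO. At the TSS of Notch1 (chr2:26502823-26504822), the receptor that keeps neural stem cells undifferentiated, they were 61.0% and 60.0% in WT and 45.0% and 37.0% in DKO. The changes were −20.5 from a WT mean of 83.8% in Notch4 and −19.5 from 60.5% in Notch1. The median over all called CG losses at a TSS in DKO was −22.5.

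Wnt ligands made up most of the remaining TSS losses. The Wnt11 TSS (chr7:98837845-98839844), of a ligand known mainly for signalling without beta-catenin, had 63.5% and 69.0% in WT and 40.0% in both Mutyh-/- libraries, and its change of −26.3 was the largest CG loss among all 56 regions. The Wnt10b TSS (chr15:98777151-98779150), of a ligand that acts through beta-catenin, had 50.0% and 52.5% in WT and 24.0% and 36.0% in Ogg1-/-, a change of −21.2. Both knockouts lay clear of WT, by 23.5 and 14.0 points. Wnt7b, a ligand that promotes dendrite growth, had 2 separate start windows called in DKO. At chr15:85577071-85579070 the level was 56.5% and 60.5% in WT and 25.0% and 45.5% in DKO. At chr15:85579730-85581729 it was 79.0% and 67.0% in WT and 53.5% and 50.0% in DKO. The DKO libraries differed by 20.5 points at the first start and by 3.5 at the second, and stayed below WT at both.

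FGF genes supplied the other 2 start regions, and they went in opposite directions. Fgf8 is a secreted morphogen of the embryonic forebrain. At its TSS (chr19:45741885-45743884) levels were 52.0% and 53.5% in WT and 31.0% and 29.5% in DKO, a change of −22.5. Fgf13 encodes an intracellular FGF homologue that binds sodium channels and microtubules rather than receptors. At the start matched above (chrX:59165089-59167088) levels were 53.5% and 62.0% in WT and 75.0% and 84.5% in Ogg1-/-, a change of 22.0, and the Ogg1-/- libraries lay 13.0 points above the higher WT library.

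**Figure D2:**
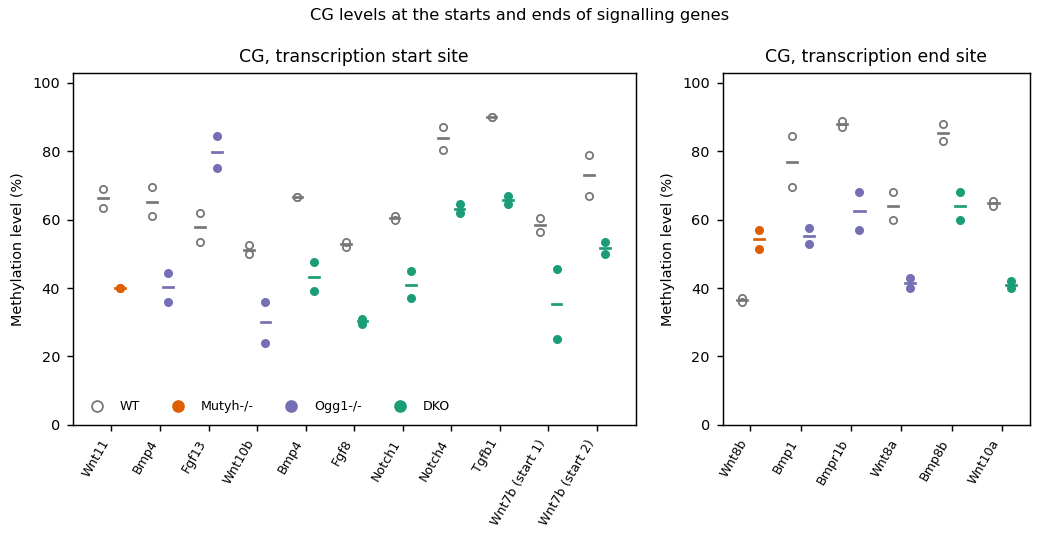
CG methylation level (%, y axis) at the called starts (left) and ends (right) of the signalling genes, with 1 point per library, open for WT and filled for the knockout, and a bar at each mean of n = 2. Fgf13 at its start and Wnt8b at its end are the only positions where knockout points lie above WT.

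Transcription end sites showed 5 losses and 1 gain, beside 82.9% losses over all called CG regions at a TES. The gain was in Mutyh-/- (84.9% losses over all), all 3 regions in Ogg1-/- were losses (84.0%) and both in DKO were losses (79.9%). Of the losses, 3 belonged to the BMP family. Bmpr1b encodes a type I BMP receptor, and its TES (chr3:141836136-141838135) had 87.0% and 89.0% in WT and 68.0% and 57.0% in Ogg1-/-, a change of −25.5. Bmp1 encodes a protease that matures collagens and frees BMPs from chordin, and its TES (chr14:70473555-70475554) had 84.5% and 69.5% in WT and 57.5% and 53.0% in Ogg1-/-. The BMP ligand gene Bmp8b had 88.0% and 83.0% in WT and 60.0% and 68.0% in DKO at its TES (chr4:123125092-123127091). Knockout libraries stayed below both WT libraries in all 3 genes, by 12.0 to 19.0 points.

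The other 3 ends belonged to Wnt ligands. Wnt8a (TES, chr18:34547062-34549061) had 60.0% and 68.0% in WT and 43.0% and 40.0% in Ogg1-/-. Wnt10a (TES, chr1:74803176-74805175) had 65.5% and 64.0% in WT and 40.0% and 42.0% in DKO, while its gene body (chr1:74793019-74803175) had 39.0% and 40.5% in WT and 54.5% and 59.0% in DKO. Wnt10a therefore lost 23.8 points at its end and gained 17.0 in its body in the same libraries, and the order of the levels turned over, with the end higher in WT and the body higher in DKO. Wnt8b (TES, chr19:44513274-44515273), expressed in the embryonic hippocampal primordium, was the 1 gain, with 37.0% and 36.0% in WT and 57.0% and 51.5% in Mutyh-/-. It was also the CG region closest to the calling threshold, at a relative change of 0.098 in its smallest pair as recomputed from medians of 2 decimals.

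Gene bodies held 39 of the CG regions, 17 gains and 22 losses (43.6% gains), beside 54.1% gains over all called gene bodies. Per knockout, gains numbered 6 of 13 in Mutyh-/- (48.1% over all), 5 of 12 in Ogg1-/- (57.1%) and 6 of 14 in DKO (57.2%). The Wnt ligands mostly lost methylation. Wnt7b was called in each comparison. Its body had 71.0% and 69.5% in WT against 55.5% and 41.5% in Mutyh-/-, and 86.0% and 73.5% in WT against 53.5% and 62.5% in Ogg1-/-. In the comparison with DKO the shorter of its bodies (chr15:85536437-85577070) had 86.0% and 82.5% in WT and 63.0% and 65.5% in DKO. The changes were −21.8, −21.8 and −20.0, with WT libraries higher throughout. The medians over all called CG gene-body losses were −20.8 in Mutyh-/-, −20.2 in Ogg1-/- and −21.0 in DKO.

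Wnt6, a ligand of epithelia, changed by −18.5 in its body in Ogg1-/- beside a loss in Mutyh-/-, where the nearest libraries were only 7.5 points apart (64.5% and 76.0% in WT, 57.0% and 44.0% in Mutyh-/-). Wnt5a, which signals largely without beta-catenin, had 65.0% and 57.0% in WT and 33.0% and 45.0% in Ogg1-/-. Wnt9a, known from joint development, had 77.5% and 67.0% in WT and 49.0% and 55.0% in Ogg1-/-. Neither gene's libraries overlapped between the groups. Among the receptors, Fzd5, a Frizzled with a part in synapse formation, had 75.0% and 72.5% in WT and 55.5% and 50.0% in DKO. Ror1, a receptor kinase for Wnt5a, had 70.5% and 64.0% in WT and 87.0% and 86.5% in DKO, a gain of 19.5. Fzd3, needed for axon tract formation, was called as a gain in Mutyh-/- with 77.5% and 32.5% in WT and 78.0% and 74.0% in the knockout. On these levels, averaged over pairs, its first WT library lay above the lower Mutyh-/- library, and the second WT library stood far below the other 3. Within each of the 4 pairs of libraries, however, the Mutyh-/- level was higher, by 15.0 to 24.0 points. The overlap is thus one of averaged levels and not of levels within a pair.

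Among the BMP and TGF-beta genes picked by name, every called gene body lost CG methylation. Smad7, the inhibitory Smad that shuts off TGF-beta receptors, was called in all 3 comparisons with little spread (chr18:75368365-75394934). WT libraries read 73.0% and 71.5% beside 53.5% and 54.5% in Mutyh-/-, 73.0% and 73.5% beside 55.5% and 56.0% in Ogg1-/-, and 74.0% and 73.5% beside 56.0% and 55.0% in DKO. The WT mean stayed between 72.2% and 73.8% and every knockout library was at least 17.0 points lower. The type I receptor gene Bmpr1a had 95.5% and 85.5% in WT and 69.0% in both Mutyh-/- libraries. Tgfbr3l, a small relative of the co-receptor gene Tgfbr3, had 69.0% and 68.5% in WT and 53.0% and 49.0% in DKO.

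The called bodies of the Notch genes picked by name also lost CG methylation. Jag1, a Notch ligand, had 75.5% and 67.5% in WT and 42.5% and 52.0% in Mutyh-/-, and 63.5% and 67.5% in WT and 50.5% and 42.5% in Ogg1-/-. Notch2, a receptor that holds neural stem cells in quiescence, had 79.5% and 78.5% in WT and 61.5% and 60.5% in Mutyh-/-, and 76.0% and 79.0% in WT and 58.0% and 59.5% in DKO. The Jag1 change in Mutyh-/- (−24.2) was the largest loss in any of the gene bodies described here, and the Notch2 changes (−18.0 and −18.7) were among the smallest. Neither gene had overlapping libraries.

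The FGF gains lay in the genes of intracellular FGF homologues, which regulate sodium channels at the axon initial segment. Fgf12 had 76.5% and 75.5% in WT and 93.0% and 100.0% in Mutyh-/-, then 67.0% and 58.0% in WT and 89.5% and 76.0% in Ogg1-/-, then 79.0% and 70.0% in WT and 94.0% and 95.5% in DKO. Its changes were 20.5, 20.2 and 20.2 and no libraries overlapped. Fgf13 read 71.0% and 37.0% in WT and 81.5% and 80.5% in Ogg1-/-, with the same values listed for 3 extents of its body (the longest chrX:59063146-59584572). In the comparison with DKO it read 77.5% and 63.5% in WT and 100.0% and 88.5% in DKO. Its gain in Mutyh-/-, with 62.5% and 40.0% in WT and 93.0% and 88.0% in the knockout, was the largest change of all at 39.2 points and was 25.5 in the pairs that remained without the first Mutyh-/- library.

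Fgf14, the third homologue with a region and the longest of them at 703 kb, moved the other way. It had 88.5% and 91.5% in WT and 63.5% and 74.0% in DKO, a change of −21.2. The secreted FGFs were losses. Fgf3, known from inner ear development, had 64.0% and 78.0% in WT and 51.0% and 46.0% in Mutyh-/-, and the body of Fgf8 had 83.5% and 75.5% in WT and 58.5% and 62.0% in Ogg1-/-. None of these 3 genes had overlapping libraries.

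Gli3, the Gli factor that acts mostly as a repressor, carried the only CG region among the Gli and Ptch genes (chr13:15464723-15729025). It read 36.5% and 41.0% in WT and 74.0% and 65.5% in DKO, a change of 31.0, which was 21.0 without the first WT library and 41.0 without the second. Lrp1b, an endocytic receptor and one of the longest mouse genes, gained in each comparison. It had 60.0% and 58.5% in WT and 82.0% and 81.0% in Mutyh-/-, and 76.0% and 68.5% in WT and 94.0% and 92.0% in Ogg1-/-. In the comparison with DKO the libraries overlapped, at 46.5% and 73.5% in WT and 95.0% and 65.0% in DKO.

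**Figure D3:**
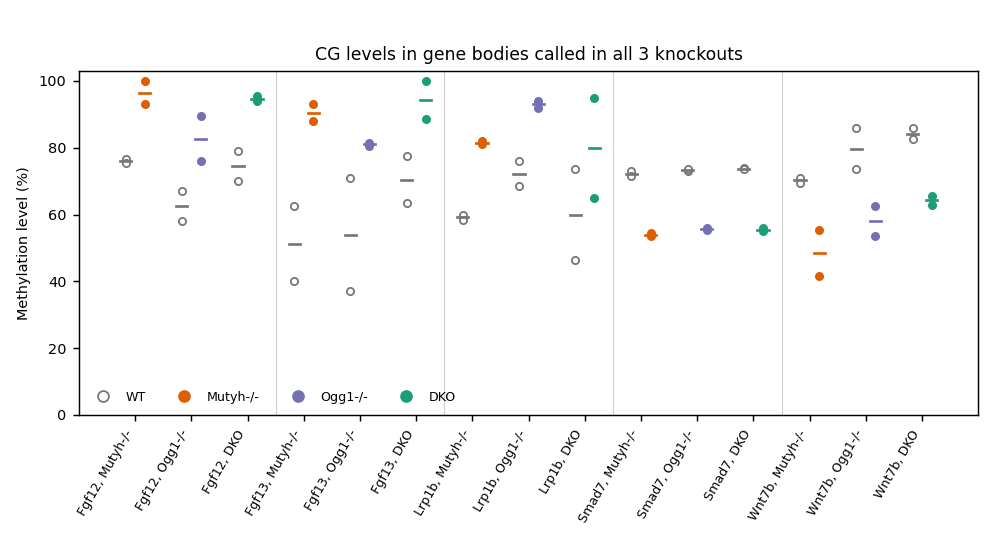
CG methylation level (%, y axis) in the bodies of the 5 genes called in each knockout, with 1 point per library, open for WT and filled for the knockout, and a bar at each mean of n = 2. Smad7 WT points all lie from 71.5% to 74.0%, whereas the WT points of Fgf13 and Lrp1b span 37.0% to 77.5% and 46.5% to 76.0%.

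The 3 comparisons used the same WT libraries, yet the WT level of a region with a gain varied from one comparison to the next. The WT mean of Fgf13 ranged from 51.2% to 70.5% over the comparisons, that of Fgf12 from 62.5% to 76.0% and that of Lrp1b from 59.2% to 72.2%. Over the 3 identical regions with gains in more than 1 comparison the median range was 13.5 points, beside 5.2 over all such called gains. Over the 6 with losses it was 3.8, beside 2.2 over all called losses. The tool keeps cytosines pair by pair, and how many it kept per region is not in the tables used here. Changes were read within a comparison only. A call in all 3 knockouts is not 3 separate findings, because the WT libraries are shared. The share of all genes called in all 3 is not given here.

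Direction in gene bodies went with gene length. Counted once per set of values (13 gains and 20 losses), regions in signalling genes over 100 kb were 11 gains and 3 losses, and in genes up to 100 kb they were 2 gains and 17 losses. Over all called CG gene bodies 81.1% were gains in genes over 100 kb and 18.7% in shorter genes, so the signalling genes followed the general split. The 7 genes with a gene-body gain had a median length of 349 kb and the 13 with a loss had one of 28.6 kb, beside 259 kb and 39.4 kb over all called genes. The losses of Fgf14 and of Notch2 (137 kb) and the gains of Fzd3 (70.0 kb) and Wnt10a (12.2 kb) were the exceptions. Median WT levels, again counted once per set of values, were 60.0% for gene-body gains and 72.8% for losses. Over all called CG gene bodies, with repeated entries kept, they were 63.2% and 78.6%. The level cannot pass 100%.

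**Figure D4:**
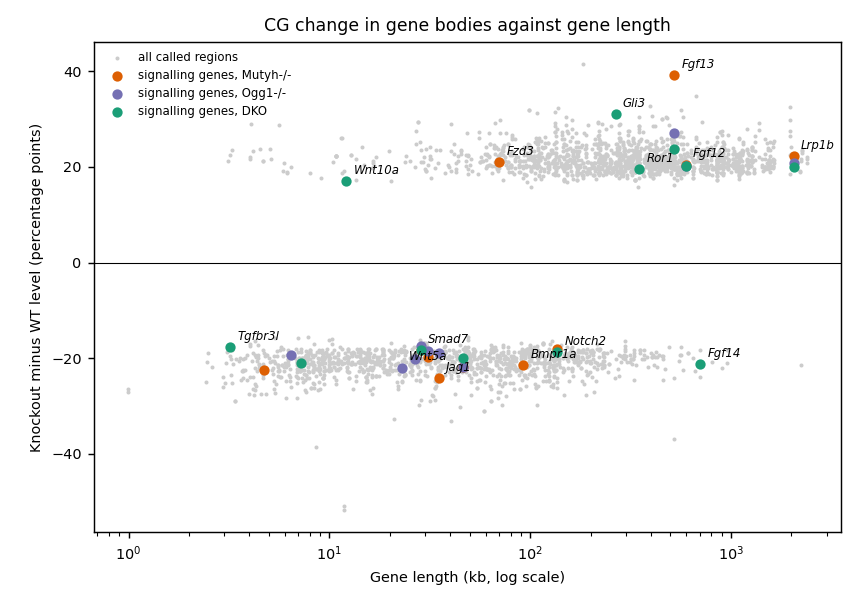
Change in CG gene-body methylation (percentage points, y axis) against gene length (kb, log scale), for all called regions in grey and the signalling genes in colour by knockout. Gains of the signalling genes lie mostly to the right, with Fgf13 at 39.2 the highest of them, and losses mostly to the left, with Fgf14 far right of the rest.

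CHH cytosines, where H stands for A, C or T, are methylated in neurons by Dnmt3a. The levels here, with a median of 43.4% in WT, are medians over the methylated cytosines kept by the tool and not averages over all CHH sites. Of the 76 CHH losses 70 lay in gene bodies, 5 at a TES and 1 at a TSS. Over all called regions losses were 99.5% in Mutyh-/-, 99.8% in Ogg1-/- and 97.7% in DKO, so the direction says nothing about these genes. Median changes of the named families were −19.0, −18.2 and −18.9, beside −18.5, −18.0 and −19.0 over all called regions.

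Among Wnt genes the largest CHH losses were in the ligand genes Wnt7b and Wnt7a. Wnt7b at its TES (chr15:85534437-85536436) had 50.0% and 63.5% in WT and 26.0% and 30.0% in Mutyh-/-, a change of −28.8, and 43.0% and 62.5% in WT and 33.0% and 20.5% in Ogg1-/-. Wnt7a, a ligand that promotes synapse assembly in the hippocampus, had 61.0% and 40.5% in WT and 21.5% and 23.0% in Mutyh-/-, and 58.5% and 37.5% in WT and 27.5% and 23.0% in Ogg1-/-. Its changes of −28.5 and −22.8 shrank to −19.0 and −15.0 without the first WT library. Wnt5b, a relative of Wnt5a, had 55.5% and 46.0% in WT and 25.5% and 30.0% in Ogg1-/-. All these knockout libraries lay below both WT libraries, by 10 points or more.

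All 3 Tcf7-family factors with a region lost CHH methylation, and none of them had a CG region. Tcf7l1, which mostly represses Wnt targets, had 49.5% and 53.5% in WT and 22.5% and 29.0% in Mutyh-/-, a change of −25.8. Tcf7l2, a Wnt effector known from thalamus and oligodendrocytes, was called in each comparison, with changes of −13.7, −16.0 and −18.8. Its levels were 42.5% and 42.0% in WT beside 28.0% and 29.0% in Mutyh-/-, 43.5% and 41.0% beside 26.5% and 26.0% in Ogg1-/-, and 47.0% and 45.0% beside 29.0% and 25.5% in DKO. Its libraries were tight within groups and at least 13.0 points apart between them.

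In the TGF-beta branch, Smad3, which carries TGF-beta signals to the nucleus, lost CHH methylation in each comparison. It had 63.5% and 39.5% in WT and 23.0% and 32.0% in Mutyh-/-, 50.5% and 39.5% in WT and 29.5% and 27.5% in Ogg1-/-, and 59.5% and 43.5% in WT and 29.5% and 24.0% in DKO. The first WT library was the higher one each time, and without it the change in Mutyh-/- went from −24.0 to −16.0. Smad7 had 55.5% and 38.0% in WT and 20.0% and 21.0% in Ogg1-/-, and its change of −26.3 shrank to −15.0 without the first WT library and to −15.5 without the first Ogg1-/- library. Tgfbr2, the receptor that binds the TGF-beta ligands, was steadier, with WT means from 41.8% to 42.8% and changes of −18.3, −18.2 and −16.2.

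In the BMP branch, the TES of Bmp2 (chr2:133561897-133563896), a ligand gene, had 57.5% and 48.5% in WT and 34.0% and 18.0% in DKO, a change of −27.0. Bmp7, a ligand made in the meninges and choroid plexus, changed by −21.0, −17.5 and −16.0 in its body in Mutyh-/-, Ogg1-/- and DKO, with WT libraries from 44.0% to 58.5% and knockout libraries from 28.5% to 35.0%. Bmp5, another ligand gene, overlapped between groups, with 74.5% and 40.5% in WT and 42.0% and 29.5% in DKO. Bmp2k, the kinase outside the pathways, was called in each comparison with changes of −17.8, −15.5 and −18.0.

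Both Notch receptors with CHH regions were called in each comparison. Notch1 had 43.5% and 53.5% in WT beside 24.0% and 38.0% in Mutyh-/-, 40.5% and 55.0% beside 30.0% and 20.0% in Ogg1-/-, and 48.5% and 40.0% beside 24.5% and 17.5% in DKO. Notch2 had 55.0% and 36.5% in WT beside 31.5% and 22.0% in Mutyh-/-, 40.0% and 42.0% beside 28.5% and 23.5% in Ogg1-/-, and 47.0% and 43.5% beside 30.5% and 29.0% in DKO. The nearest libraries were 5.5 points apart for Notch1 and 5.0 for Notch2 in Mutyh-/-, and 10.5 or more in the other comparisons.

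Hedgehog genes lost CHH methylation in Gli1, Gli3 and the receptor gene Ptch1. Gli1, an activator and a direct target of the pathway, had 48.0% and 47.0% in WT and 20.5% and 21.0% in DKO, and its gap of 26.0 points between the nearest libraries was the widest of all CHH regions here. Ptch1 had 44.0% and 61.0% in WT and 32.0% and 25.0% in DKO, a change of −24.0 that shrank to −16.0 without the second WT library. The endocytic receptor gene Lrp2 had 42.5% and 55.0% in WT and 28.0% and 21.0% in Ogg1-/-. The other CHH members, among them the receptor gene Fgfr1, the co-receptor gene Lrp5 and Smad1, Smad2, Smad5 and Smad6, had changes within the range of −13.7 to −28.8 that spans all 76. The CHH region nearest the calling threshold was Wnt5a in DKO, at a relative change of 0.096 as recomputed.

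**Figure D5:**
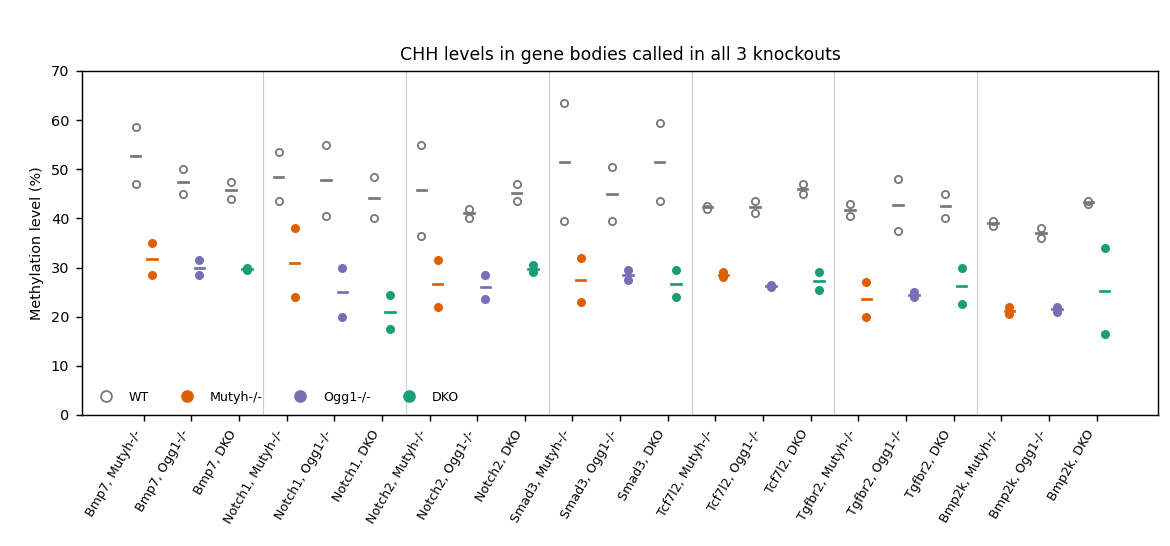
CHH methylation level (%, y axis) in the bodies of the 7 genes called in each knockout, with 1 point per library, open for WT and filled for the knockout, and a bar at each mean of n = 2. WT points range from 36.0% to 63.5% and knockout points from 16.5% to 38.0%, and WT points of Smad3 spread the most.

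In 11 genes (9.02% of those annotated, beside 2.88% of all annotated genes) regions were called in both CG and CHH, and 20 genes had CG regions alone and 33 CHH regions alone. CG and CHH levels come from the same libraries. In 6 of the 11 both contexts were called in the same knockout and feature. At the Bmp4 TSS in Ogg1-/- the CHH level was 44.0% and 41.0% in WT and 23.5% and 25.0% in the knockout, a change of −18.2 beside the CG change of −25.0. Both contexts also fell together in the bodies of Fgf8 and Smad7 in Ogg1-/-, of Wnt7b in Mutyh-/- and of Notch2 in Mutyh-/- and DKO. Fgf12 in Mutyh-/- was the 1 gene where they went apart. Its body gained 20.5 points in CG, while CHH had 33.5% and 38.5% in WT and 20.5% and 19.0% in Mutyh-/- over the same stretch (chr16:28158783-28445075). Gli3 was also a gain in CG and a loss in CHH, in different knockouts, with CHH changes of −15.5 in Mutyh-/- and −15.8 in Ogg1-/-. Bmpr1b, Notch1, Wnt11 and Wnt5a had their CG and CHH losses in different features or knockouts.

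Some families had no region, and others had regions in only a part of their genes. Both Axin genes and all 3 Dvl genes, which encode proteins of the Wnt pathway inside the cell, had none, and neither had Lrp6. Of the 10 Frizzled receptor genes 7 had none. Of the 19 Wnt ligand genes 12 had a region, 9 in CG and 6 in CHH, and Wnt1, Wnt2, Wnt2b, Wnt3, Wnt3a, Wnt4 and Wnt16 had none. Of 22 FGF genes 8 had a region, of 8 Smads 6, and of 4 Notch receptors 3. Over all annotated genes 20.2% had a region in CG or CHH, 12.8% in CG and 10.3% in CHH. Genes without a region may have been covered and unchanged, changed by less than the threshold, or too thinly covered, and these cannot be told apart in tables of called regions.

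Other genes of the same pathways, from lists chosen with earlier results of these data known, were called both ways in CG and only as losses in CHH. In CG, 10 of 68 other Wnt pathway genes (14.7%) had a region in any knockout, as had 15 of 60 BMP and TGF-beta genes (25.0%), 2 of 24 FGF genes (8.33%), 10 of 44 Notch genes (22.7%) and 4 of 23 Hedgehog genes (17.4%), beside 12.8% of all genes. Losses were found in 6, 13, 0, 10 and 3 of these genes, beside 8.96% of all genes, and gains in 4, 2, 2, 1 and 1, beside 4.36%. Dner, a Notch-binding protein of neurons, counted both ways, with a loss at its TSS in Ogg1-/- (−20.3) and gains in its body in Mutyh-/- (25.5) and DKO (25.8). In CHH the numbers with a region were 22 (32.4%), 11 (18.3%), 4 (16.7%), 4 (9.09%) and 8 (34.8%), all with losses, beside 10.3% of all genes. Dact3, which dampens Wnt signals, had 70.5% and 69.5% in WT and 50.0% in both Mutyh-/- libraries in its body, and changed by −19.0 in Ogg1-/- and −20.0 in DKO. The planar polarity gene Prickle2 gained 20.0, 24.2 and 19.5 points. The BMP co-receptor gene Rgma (−18.5, −22.0 and −19.8) and Ski, an inhibitor of Smads (−19.2, −19.8 and −21.5), were losses in each comparison. The 2 listed BMP and TGF-beta genes with CG gains were Chrdl1 and Zfyve9, in their bodies. Shh, the Hedgehog ligand, had 42.0% and 43.5% in WT and 26.0% and 25.5% in Mutyh-/- in its body, and 45.0% and 44.0% in WT and 32.5% and 24.5% in DKO.

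Cell type markers also carried CG regions in the same tables, in 4 of 8 neuronal markers (3 with gains and 1 with a loss), 3 of 6 astrocyte markers (1 and 2), 3 of 8 oligodendrocyte markers (all losses), 1 of 6 microglial markers (a gain) and 1 of 5 vessel and choroid plexus markers, beside 12.8% of all genes. The last was Pdgfrb, a pericyte receptor, with a gain in Mutyh-/- and a loss in DKO. In CHH, losses were called in 2 of 6 microglial markers, 2 of 5 vessel and choroid plexus markers and 1 of 6 astrocyte markers, and in 0 of 8 neuronal and 0 of 8 oligodendrocyte markers, beside 10.3% of all genes. Their part in the changes of the signalling genes was not tested. The tables hold no expression, so the labelled tissue could not be checked against marker levels.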

How the data were processed

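Hippocampal DNA of 4 genotypes with 2 libraries each was bisulfite sequenced, and groups follow the labelled genotypes. Per the study's methods and the submitters' processing notes, reads were checked with FastQC and aligned to GRCm38 with Bismark 0.22.3. Cytosines with coverage under 4 were removed, and regions were called with HMST-Seq-Analyzer by Wilcoxon rank-sum tests between each knockout and each WT library. At least 3 methylated sites at a TSS or TES and 5 in a gene body were needed, at most 200 bp apart. The deposited medians are a score from 1 to 2, read here as 1 plus the methylated fraction, which no source used here states, and 1 was subtracted to give a level, printed in percent and averaged over both pairs that a library took part in. This reading was checked on the values. Levels at simple fractions were more frequent than values beside them, by 2.14 times in CG and 1.69 times in CHH. Deposited columns of relative ratios and p-values per pair are the authors' own comparisons and were not used. The relative changes given here were recomputed from the medians.

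Starts were made 1-based and gene symbols were matched to RefSeq GRCm38.p6 by symbol, or by synonym where the region overlapped the gene. Repeated entries were kept in counts of regions and counted once where stated. No test was run across regions, and the code was checked on simulated scores. Members and gene lists were chosen with earlier results of these data known. Genes named in the text were every member with a CG region at a TSS or TES, the 6 largest gains and 6 largest losses in CG gene bodies of each knockout, members called in all 3 knockouts in 1 context or in both CG and CHH, the 4 largest CHH losses of each knockout, and any CHG region. Further genes were named after their values were seen, namely Bmp5, Fgfr1, Lrp5, Smad1, Smad2, Smad5, Smad6 and the genes of the other pathway lists. Alternatives were entry counting, pathway genes alone, a relative change beyond 0.15, libraries at least 10 points apart, same-numbered pairs and leaving out each library. Python 3.11.15, pandas 2.3.3, numpy 2.4.6 and matplotlib 3.10.9 were used. The study states sequencing depth only as an average over libraries, and the coverage behind each region is unknown, so no interval was given.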

Additional observations from a re-analysis of the deposited data

How the results depend on the processing

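The alternatives bear on sizes and counts only, because a listed region moves the same way in all 4 library pairs and its direction could not turn when a library was left out or pairs were chosen. Of 128 alternatives for counts and medians, 116 kept the count within 1.5 times or the median within the spread, and 12 moved. Most of these came from a relative change beyond 0.15 in place of 0.1. This setting left 0 CG gains and 0 CG losses in each of the 3 knockouts. In CHH it left 1 loss in Mutyh-/-, 0 in Ogg1-/- and 2 in DKO, with medians of −28.8 in Mutyh-/- and −26.9 in DKO. The regions of these genes thus lie close to the threshold, and the share of all called regions left by this setting is not given here. Asking for libraries at least 10 points apart left 2 of the 6 CG gains in Ogg1-/-, which are 4 gains when repeated entries are counted once. Leaving out 1 library moved 6 of 123 regions by 1.5 times or more, by at most 1.75 times, as given beside each. Same-numbered libraries did not deviate together over the called regions (correlations from −0.06 to 0.04). These regions were selected over all 4 pairs, so whether same-numbered libraries shared a preparation cannot be told from this. With same-numbered pairs as a replicate block, median CG gains were 22.0, 23.2 and 20.7 points in Mutyh-/-, Ogg1-/- and DKO, median CG losses −21.5, −20.0 and −21.0, and median CHH losses −18.0, −18.5 and −20.5, and no region moved by more than 9.8 points. With 2 libraries a genotype and the coverage per region unknown, small changes are out of reach.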
